A study of Homo sapiens with 12 samples.

Results

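The genes described here are 7 human genes of DNA crosslink repair and homologous recombination: FANCL, BARD1, XRCC3, RAD51D, EXO1, HELQ and REV1. They were taken by name, and every row of theirs in the 12 deposited splicing tables was used. That gave 12 of 2365 rows: 8 detained-intron features in 5 genes (FANCL, BARD1, XRCC3, HELQ and REV1, the last with 4), and 4 skipped-exon events in RAD51D and EXO1. All 12 rows came from cells without MTAP, as did 2008 of the 2365 rows.

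The libraries came from HCT116, an established human colon cancer line, engineered to lack MTAP (MTAP-null) or with MTAP kept (MTAP-WT). MTAP salvages methionine from methylthioadenosine, and AGI24512 inhibits MAT2A, the enzyme that makes S-adenosylmethionine. There were 3 libraries in each of 4 groups, namely MTAP-null with AGI24512, MTAP-null with the solvent DMSO, MTAP-WT with AGI24512 and MTAP-WT with DMSO. RNA was poly-A enriched. The sources used here do not give the dose, the duration, the way MTAP was removed or whether a form is 1 clone. Nor do they say that libraries of a group were separate cultures, so p-values refer to the spread among libraries, some or all of which may be technical.

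An interstrand crosslink ties both DNA strands together and stops the replication fork. The Fanconi anaemia pathway marks the lesion by attaching ubiquitin to the FANCD2 and FANCI proteins, nucleases then unhook it, a translesion polymerase copies past the remnant, and homologous recombination repairs the break that is left. In that last step the cut end is resected, a protein filament forms on the single strand, and the sister chromatid is used as the template. A detained intron is one that stays in an otherwise spliced and polyadenylated transcript held in the nucleus.

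The 5 features that equal an intron of the reference transcript are shown by the exon bases that removal of the intron joins, because these are the bases next to the splice sites concerned. The sequences are from the GENCODE 29 transcripts of GRCh38, 5′ to 3′ on the minus strand, with 20 exon bases on each side. Capitals mark the last 3 bases of the exon before the intron and the first base of the exon after it.
BARD1 intron 2 (chr2:214792446-214797060): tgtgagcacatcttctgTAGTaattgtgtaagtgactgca
REV1 intron 17 (chr2:99404678-99405909): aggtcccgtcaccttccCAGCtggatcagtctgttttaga
REV1 intron 18 (chr2:99403816-99404443): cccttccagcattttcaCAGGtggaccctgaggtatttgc
REV1 intron 19 (chr2:99403107-99403694): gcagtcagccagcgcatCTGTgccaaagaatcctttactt
REV1 intron 21 (chr2:99402347-99402643): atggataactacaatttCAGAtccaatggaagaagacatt

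In 4 of these 5 junctions the upstream exon ended in AG, the usual exon side of a donor site, as did 55.2% of 222334 annotated coding junctions. In 1 of 5, REV1 intron 18, the next exon opened with G, against 48.2% of annotated junctions, and this was also the only one of the 5 with AG followed by G, against 27% of annotated junctions. The exon ended in CAG in 3 of 5, against 23.8%. With 5 junctions, 4 of them from 1 gene, these shares are a description. The intron bases themselves were not read here. The FANCL and HELQ features cover only part of the reference intron, with another edge on the donor side. The XRCC3 feature lies before the coding region. No sequence is shown for any of these.

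**Figure D1:**
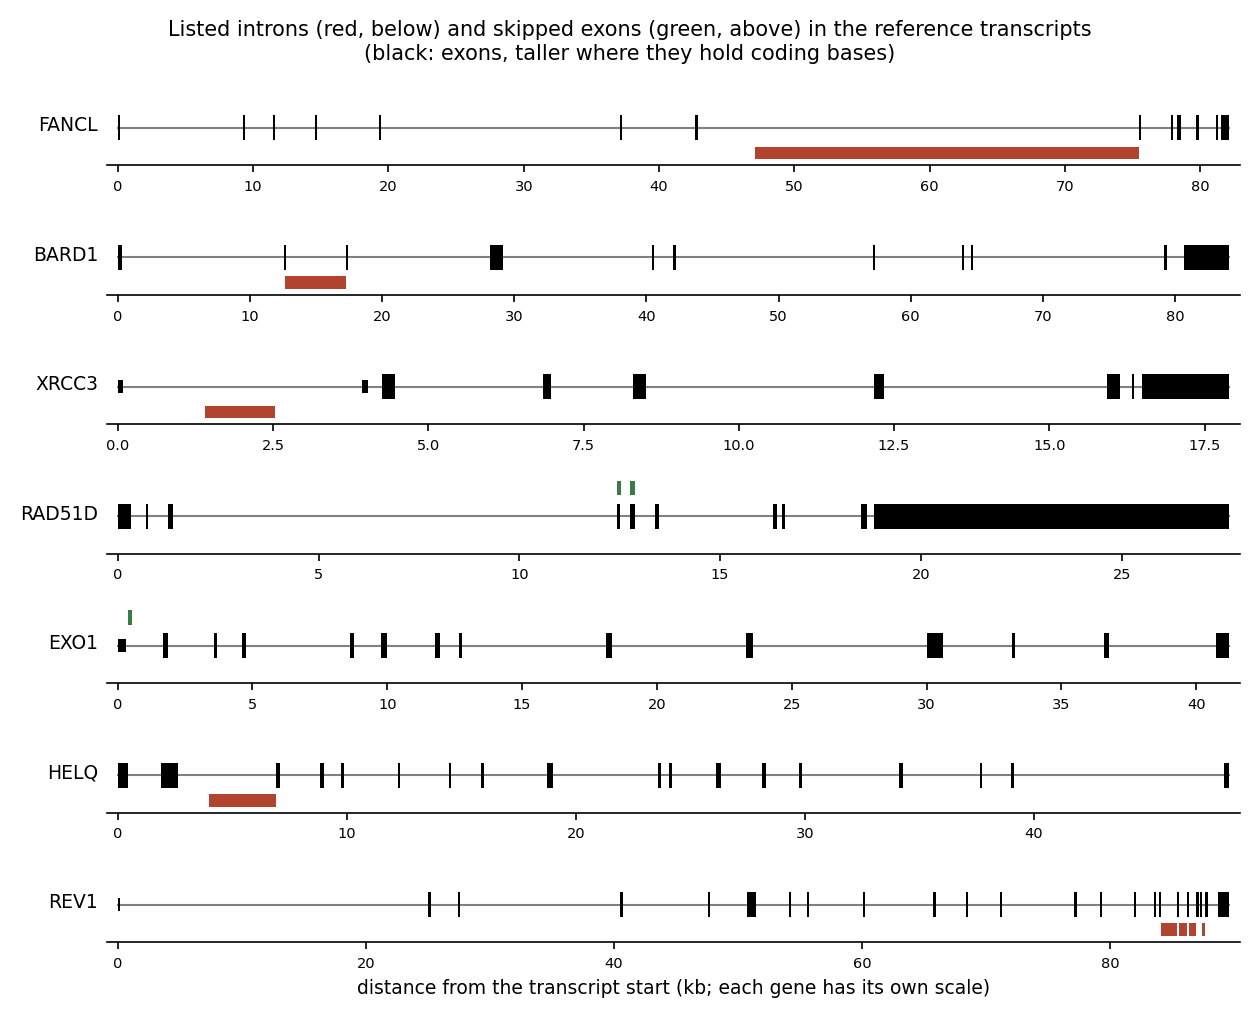
Position of the listed features in the reference transcript of each gene, as distance from the transcript start in kb, each gene on its own scale. Black boxes are exons, red bars below them are the 8 listed introns and green marks above them are the skipped exons of RAD51D and EXO1, where the 2 EXO1 forms end at the same base and overlap. The 4 REV1 introns sit together near the far end of the gene.

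All 8 listed introns of the repair genes rose with AGI24512 in MTAP-null cells and 0 fell, in a table where 77.6% of the 1549 listed introns rose and 4.65% fell. The test was edgeR's quasi-likelihood test on the deposited read counts, with size factors recovered from the deposited base means and Benjamini-Hochberg adjusted p below 0.05 over all 1549 introns. On the log2 scale the median change in reads was 1.07 over the 8 introns and 0.95 over all 1549. In 7 of the 8, every AGI24512 library was above every DMSO library, as in 75.9% of all listed introns. The authors had listed these introns because they passed a test on the same libraries, so the counts describe the list. More reads in an intron can come with more RNA of the whole gene or with a larger share left unspliced, and the gene's other reads were not analysed here.

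The authors' DEXSeq test addresses that share, as the usage of an intron relative to the rest of its gene. Usage was higher with AGI24512 for all 8 introns in the authors' deposited table, as for 93.5% of all those listed. The median log2 change of usage in the authors' deposited table was 0.52 over the 8 introns and 0.56 over all 1549. These usage values are log ratios of scores taken here to be variance-stabilised, and such scores depend on the level of an intron. They are thus not read as folds of its share and do not rank the introns by it.

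The size of each rise depends on the scaling between libraries. TMM scaling centres the listed introns. Under it the median log2 change of all 1549 shifted by -0.85, to 0.11. None of the 8 repair gene introns then passed, while 16.2% of all listed introns rose and 16.3% fell. Relative to the median of all listed introns, 6 of the 8 were higher under both scalings, and REV1 intron 21 and the XRCC3 intron were lower. By definition as many listed introns lie above their median as below it. With the recovered size factors, only HELQ of the 6 was above by more than the standard error of its log2 change, 0.36. BARD1 was above by 0.03, with a standard error of 0.41. Relative to that median, HELQ stood highest, at 0.48 on the log2 scale, and XRCC3 lowest, at -0.38. With TMM scaling these values were 0.50 and -0.39, and DESeq2 size factors computed on the listed introns gave the same.

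**Figure D2:**
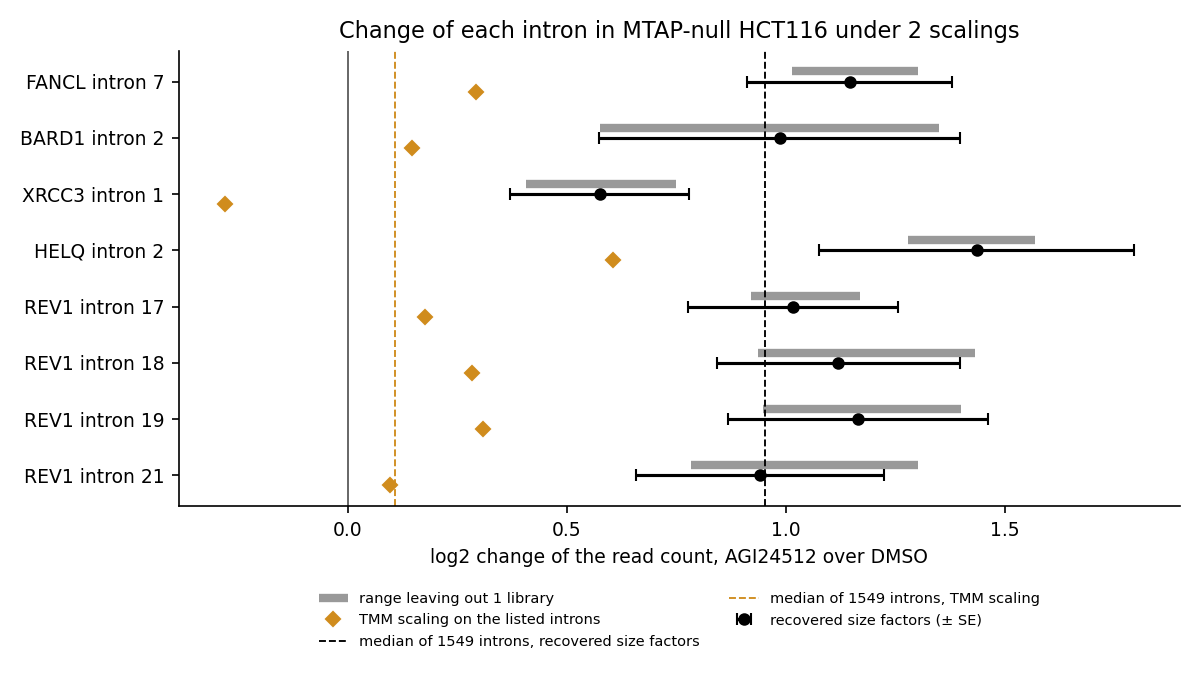
Log2 change of the read count, AGI24512 over DMSO, for each of the 8 introns. Black points with bars are the value and its standard error, grey bars the range when 1 library is left out, orange diamonds the value with TMM scaling, and dashed lines the medians of the 1549 listed introns, at 0.95 and 0.11. All black points are above 0, and the XRCC3 diamond is below 0, at -0.28.

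FANCL encodes the RING ubiquitin ligase of the Fanconi core complex, which puts ubiquitin on FANCD2 and FANCI. The listed feature (chr2:58165875-58194228, 28354 bp) is in intron 7 of the 13 of the coding transcript FANCL-201 and covers 86.7% of it. It matched an intron exactly in 1 of 10 annotated FANCL transcripts. Its normalised read count was 57.5, 88.4 and 78.3 in the AGI24512 libraries, against 36.7, 30.1 and 33.8 in the DMSO libraries. The lowest AGI24512 library was well clear of the highest DMSO library. The means were 74.7 ± 15.8 with AGI24512 and 33.5 ± 3.30 with DMSO (SD, n = 3 each), a ratio of 2.23, and the log2 change of 1.15 (standard error 0.23) had an edgeR adjusted p of 0.000794. It passed in each of the 6 fits that left out 1 library, at 1.01 to 1.30. Usage was 14.3 with AGI24512 and 9.48 with DMSO in the authors' deposited table, with an adjusted p of 2.88e-06, the lowest of the 8 and rank 190 of 1549. With TMM scaling the log2 change was 0.29, without a call.

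BARD1 is the partner of BRCA1 in the ubiquitin ligase that helps recruit the recombination machinery. Its feature (chr2:214792446-214797060, 4615 bp) is intron 2 of 10 of BARD1-201, and 1 annotated retained-intron transcript, BARD1-208, has an exon over part of it. The reads were few. There were 15, 16 and 19 raw reads in the AGI24512 libraries, against 11, 3 and 11 in the DMSO libraries. Normalised, that was 13.9, 18.1 and 17.7 with AGI24512 and 9.61, 2.91 and 12.8 with DMSO. The groups did not overlap, but the highest DMSO library came close to the lowest AGI24512 library, and DMSO replicate 2 lay far below the other two. The means were 16.6 ± 2.33 with AGI24512 and 8.44 ± 5.05 with DMSO (SD, n = 3 each), a ratio of 1.96, and the log2 change of 0.99 (standard error 0.41) had an edgeR adjusted p of 0.0373. Without DMSO replicate 2 it was 0.58 (edgeR adjusted p = 0.160), and the call was also lost on leaving out AGI24512 replicate 2 (0.92), AGI24512 replicate 3 (0.93) or DMSO replicate 1 (1.13), with adjusted p of 0.0979, 0.0784 and 0.0575 by edgeR. DESeq2 did not call it either, with an adjusted p of 0.0818. The authors' deposited table gave it a usage of 7.30 with AGI24512 and 4.34 with DMSO, a log2 change of 0.75 with an adjusted p of 0.0132. With TMM scaling the log2 change of the read count was 0.15.

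XRCC3 is a mediator protein of homologous recombination that acts up to its late steps. The listed feature (chr14:103712969-103714104, 1136 bp) lies within intron 1 of the 8 of XRCC3-201, on the untranslated side of the start codon, and covers 29.5% of it. It equals no annotated intron, although its start is an intron edge in 1 and its end in 2 of 18 annotated XRCC3 transcripts. KLC1, on the other strand, overlaps it, and the sources used here do not say whether reads were counted by strand, so reads of the 2 genes cannot be told apart. The normalised counts were 102.9, 142.9 and 166.8 with AGI24512, against 90.0, 106.9 and 79.2 with DMSO. The groups overlapped, since AGI24512 replicate 1 was below DMSO replicate 2. The means were 137.5 ± 32.3 with AGI24512 and 92.0 ± 14.0 with DMSO (SD, n = 3 each), a ratio of 1.49, the smallest of the 8, and the log2 change of 0.57 (standard error 0.20) had an edgeR adjusted p of 0.0178. It was not called on leaving out AGI24512 replicate 2 (0.55), AGI24512 replicate 3 (0.41), DMSO replicate 1 (0.56) or DMSO replicate 3 (0.48), with edgeR adjusted p of 0.0544 to 0.0909. The direction turned with TMM scaling, to -0.28, and with DESeq2 size factors, to -0.32. Its usage passed in the authors' deposited table, at 20.9 with AGI24512 and 14.6 with DMSO, with an adjusted p of 7.97e-06.

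HELQ is a DNA helicase that works at stalled forks and crosslinks. Its feature (chr4:83448962-83451857, 2896 bp) covers 67.8% of intron 2 of the 17 of HELQ-201. The name given to the detained intron joins HELQ with its neighbour FAM175A, now ABRAXAS1. The feature overlaps only HELQ in the annotation. It equals no annotated intron, and its edge on the donor side is an intron edge in 0 of 6 annotated HELQ transcripts. Raw reads were again few, at 22, 15 and 15 with AGI24512 and 8, 6 and 5 with DMSO. Normalised, these were 20.4, 17.0 and 14.0 with AGI24512, against 6.99, 5.83 and 5.82 with DMSO. The lowest AGI24512 library was above the highest DMSO library, a gap that rests on 15 against 8 raw reads. The means were 17.1 ± 3.21 with AGI24512 and 6.21 ± 0.673 with DMSO (SD, n = 3 each). The ratio of 2.76 and the log2 change of 1.44 (standard error 0.36) were the largest of the 8, with an edgeR adjusted p of 0.00267, and the call held in each of the 6 fits that left out 1 library, at 1.28 to 1.57. In the authors' deposited table its usage of 6.64 with AGI24512 and 4.24 with DMSO only just passed, with an adjusted p of 0.0487, rank 1540 of 1549. The log2 change with TMM scaling was 0.61, without a call.

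REV1 inserts deoxycytidine opposite damaged bases and is the scaffold on which the other translesion polymerases are exchanged. It had 4 listed introns, numbers 17, 18, 19 and 21 of the 22 of REV1-201, all in the coding region and each equal to an annotated intron. They lie within the last part of the gene and are 1232, 628, 588 and 297 bp long. Introns 16, 20 and 22 beside them, of 218, 88 and 891 bp, had no listed row. An antisense gene, AC018690.1, overlaps intron 17, and annotated transcripts of REV1 that keep an intron or are marked for decay have exons over introns 19 and 21.

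REV1 intron 17 had normalised counts of 53.8, 57.8 and 46.6 with AGI24512, against 30.6, 22.3 and 24.4 with DMSO. REV1 intron 18 had 44.5, 40.8 and 47.5 with AGI24512, against 18.3, 28.2 and 14.0 with DMSO. In both introns the 3 AGI24512 libraries kept close together and were all above the DMSO libraries. REV1 intron 19 had 34.3, 56.7 and 63.4 with AGI24512, against 25.3, 15.5 and 27.9 with DMSO. REV1 intron 21 had 38.0, 47.6 and 51.3 with AGI24512, against 19.2, 34.0 and 17.5 with DMSO. Neither overlapped, although AGI24512 replicate 1 of intron 19 and DMSO replicate 2 of intron 21 came close to the other group. DMSO replicate 2 was the highest DMSO library for introns 18 and 21 and the lowest for introns 17 and 19.

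The log2 changes of the read count were 1.02 ± 0.24 and 1.12 ± 0.28 (standard error) for REV1 introns 17 and 18, with edgeR adjusted p of 0.0019 and 0.00248. They were 1.16 ± 0.30 and 0.94 ± 0.28 (standard error) for introns 19 and 21, with edgeR adjusted p of 0.00293 and 0.00759. The 4 values lay closer together than the standard error of any one of them. Each of the 4 passed in each of the 6 fits that left out 1 library. The 4 introns belong to 1 transcript and share its libraries, so they are not separate observations of the treatment. Summed, the 4 REV1 introns had 170.5, 203.0 and 208.7 normalised counts with AGI24512, against 93.5, 100.1 and 83.8 with DMSO. The means of the sums were 194.1 ± 20.6 with AGI24512 and 92.5 ± 8.18 with DMSO (SD, n = 3 each), a ratio of 2.10. The authors' deposited table gave usage log2 changes of 0.44, 0.50, 0.52 and 0.41 for introns 17, 18, 19 and 21, with adjusted p of 0.00832, 0.00628, 0.0174 and 0.0391. With TMM scaling the log2 changes of the read count were 0.17, 0.28, 0.31 and 0.10 in the same order, none called.

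**Figure D3:**
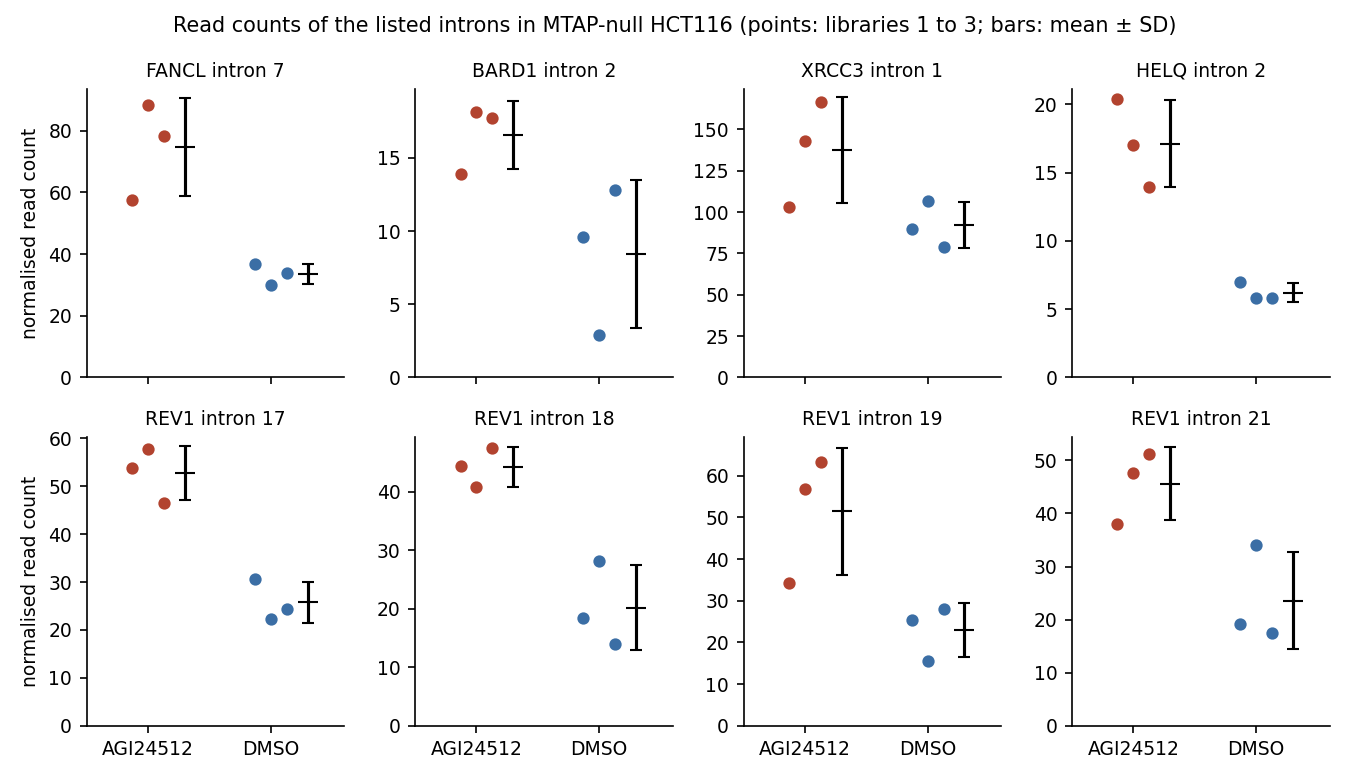
Normalised read count of the 8 introns in MTAP-null cells, 1 panel per intron on its own scale, with 1 point per library and the mean ± SD beside it. The AGI24512 points are above the DMSO points in every panel but XRCC3, where AGI24512 replicate 1 (102.9) is below DMSO replicate 2 (106.9).

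Per length, the introns held very different levels of reads. The mean normalised count per kb was 2.64 with AGI24512 and 1.18 with DMSO for FANCL, 3.59 and 1.83 for BARD1, and 5.91 and 2.15 for HELQ. It was 121 with AGI24512 and 81.0 with DMSO for XRCC3. REV1 had 42.8 ± 4.62 with AGI24512 and 20.9 ± 3.47 with DMSO in intron 17 (SD, n = 3 each), and 153.6 ± 23.1 and 79.3 ± 30.6 in intron 21. REV1 introns 18 and 19 lay between these, at 70.5 ± 5.35 and 87.5 ± 25.9 with AGI24512 and 32.1 ± 11.6 and 39.0 ± 11.1 with DMSO. Among the REV1 introns, every library of intron 21 was above every library of the other introns, within AGI24512 and within DMSO. Introns 18 and 19 overlapped in both groups, and introns 17 and 18 overlapped with DMSO only. By their means, the reads per kb were higher the shorter the REV1 intron, in both treatments. Before division by length the mean counts of introns 17, 18, 19 and 21 differed little. They were 52.7, 44.3, 51.5 and 45.6 with AGI24512, and 25.8, 20.2, 22.9 and 23.6 with DMSO. The order per kb thus follows the lengths used as divisors. The feature lengths of 297 to 28354 bp compare with a median of 2097 bp over all listed introns, of which 33 were longer than the FANCL feature. All 8 features were on the minus strand, as were 50.4% of all listed introns, with 4 of the 8 in REV1. The 4 REV1 introns were named by the Braun list of detained introns, intron 21 by the Boutz list as well, and the other 4 by the Boutz list only.

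**Figure D4:**
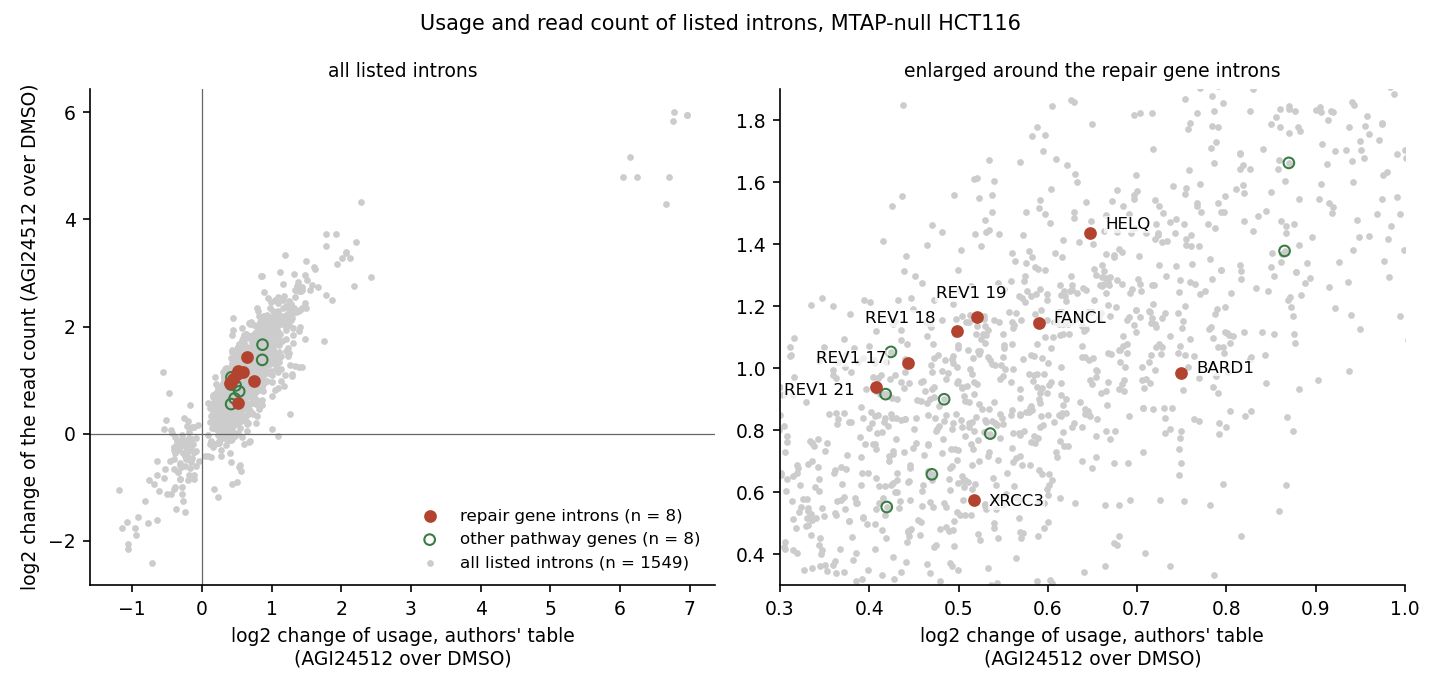
Log2 change of usage in the authors' deposited table (x axis) against log2 change of the read count (y axis), AGI24512 over DMSO, for all 1549 listed introns (grey), the 8 features of other pathway genes (green rings) and the 8 repair gene introns (red). The right panel enlarges the region of the red points, which lie within the main cloud. Among the red points, HELQ is highest and XRCC3 lowest in log2 change of the read count.

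RAD51D and EXO1 had no listed intron but each had 2 skipped-exon events. These come from rMATS, which compares 2 sets of 3 libraries and gives the inclusion level, from 0 to 1. It is the share of the inclusion form against the skipping form of that event, from reads corrected for the length of each form. Transcripts of other forms are not counted as skipping. Which treatment formed set 1 is not in the headers, so the direction relative to AGI24512 is unknown here. Of the 276 listed skipped-exon events in MTAP-null cells, 48.6% were higher in set 1 and 51.4% in set 2. The sets did not overlap in any of the 4 events, as in 90.9% of the listed events.

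RAD51D is a mediator protein that acts early in recombination, on resected DNA. Its events were exon 4 (82 bp, chr17:35107366-35107447) and exon 5 (135 bp, chr17:35106988-35107122) of RAD51D-202, which lie next to each other in the coding region. Both are also part of the readthrough gene RAD51L3-RFFL. The 2 exons are shown because their lengths decide the reading frame when they are left out. Capitals mark the first and last 3 bases of each exon, from the same transcripts.
RAD51D exon 4: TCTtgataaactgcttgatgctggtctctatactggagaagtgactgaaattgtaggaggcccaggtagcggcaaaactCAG
RAD51D exon 5: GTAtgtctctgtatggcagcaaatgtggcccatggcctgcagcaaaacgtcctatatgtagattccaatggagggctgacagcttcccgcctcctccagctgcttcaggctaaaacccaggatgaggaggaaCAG

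The inclusion level of RAD51D exon 4 in the authors' deposited table was 0.943, 1 and 1 in set 1, against 0.404, 0.783 and 0.795 in set 2. The difference of 0.32 had an FDR of 0.00217. For RAD51D exon 5 the authors' deposited table gave 0.929, 1 and 1 in set 1, against 0.613, 0.845 and 0.742 in set 2, a difference of 0.243 with an FDR of 0.000284. Set 2 library 1 was the lowest for both exons, and without it the sets would still be apart. These were ranks 119 and 88 by FDR among the 276 events, whose median absolute difference was 0.236.

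Both RAD51D events rest on the same few skipping reads, which join exon 3 directly to exon 6. A transcript that lacks only exon 4 or only exon 5 gives no such read. Both events have exons 3 and 6 as flanks, so the inclusion form of each holds its own exon without the other. Reads that join exon 4 to exon 5 belong to neither form. Inclusion reads thus do not tell the full transcript from one that lacks the other exon, and the inclusion level is not the share of the full transcript. There were 1, 0 and 0 such reads in set 1, against 15, 4 and 4 in set 2. Inclusion reads of exon 4 were 31, 19 and 19 in set 1, against 19, 27 and 29 in set 2. Inclusion reads of exon 5 were 32, 44 and 45 in set 1, against 58, 53 and 28 in set 2. Skipping was thus seen in all 3 libraries of set 2 and in 1 of set 1. In set 2 library 1 the skipping reads were 44.1% of the reads of the exon 4 event, with a 95% Clopper-Pearson interval of 27.2% to 62.1%. In set 2 libraries 2 and 3 they were 12.9% (3.63% to 29.8%) and 12.1% (3.40% to 28.2%). In set 1 library 1 they were 3.13% (0.0791% to 16.2%), and the other two had 0 of 19 reads each, with an upper Clopper-Pearson bound of 17.6%. A limit of 3 counts, used here where a count is 0, is 15.8% of 19 reads. For exon 5, 0 of 44 and 0 of 45 reads had upper Clopper-Pearson bounds of 8.04% and 7.87%, and limits of 3 counts at 6.82% and 6.67%. These intervals and limits cover counting error only. They are shares of reads without the correction for form length that the inclusion level has. Where skipping was seen, they therefore lie below the skipped share that the inclusion level implies.

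The RAD51D junction between exons 3 and 6 is annotated in 1 of 23 RAD51D transcripts, RAD51D-223. It is shown because it carries the skipping reads. Capitals mark the 3 bases before and the 1 base after the junction, and the first stop codon that the frame of RAD51D-202 meets after it.
RAD51D exon 3 to exon 6: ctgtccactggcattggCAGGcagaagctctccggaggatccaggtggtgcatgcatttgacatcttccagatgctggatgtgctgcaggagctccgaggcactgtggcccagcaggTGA

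Read in the frame of RAD51D-202, the full transcript has 328 codons before its stop. Without both exons, which removes 217 bases, that is 120 codons, with a TGA that ends 100 bases after the junction. Without exon 4 alone the frame also shifts, and a TAG follows after 107 codons. Without exon 5 alone, 135 bases, the frame is kept, with 283 codons and the same stop as the full form. Neither event counts a form without exon 4 alone or exon 5 alone as skipping. These frames are properties of the annotated sequence, and no protein was measured.

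EXO1 is the nuclease that resects the cut end to expose single-stranded DNA. Its 2 events are 2 forms of 1 exon before the coding start (chr1:241849109-241849216, 108 bp, and chr1:241849112-241849216, 105 bp), with acceptor sites 3 bases apart. Each form is annotated in 1 of 12 EXO1 transcripts, and the junction that skips it in 7. The exon is untranslated in these transcripts, so no sequence is shown. For the 108 bp form of EXO1, the authors' deposited table gave inclusion levels of 0.648, 0.554 and 0.662 in set 1, against 0.795, 0.843 and 0.88 in set 2, a difference of -0.218 with an FDR of 0.0272. For the 105 bp form the authors' deposited table gave 0.504, 0.491 and 0.534 in set 1, against 0.689, 0.769 and 0.802 in set 2, a difference of -0.244 with an FDR of 0.0356. Set 1 was lower for both forms, the opposite direction to RAD51D, and every library of set 1 was below every library of set 2.

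The EXO1 events rested on more reads than those of RAD51D. Skipping reads, shared by the 2 forms, were 27, 24 and 33 in set 1, against 26, 18 and 10 in set 2. Inclusion reads of the 108 bp form were 107, 64 and 139 in set 1, against 217, 208 and 158 in set 2. Inclusion reads of the 105 bp form were 58, 49 and 80 in set 1, against 122, 127 and 86 in set 2. The 2 forms share their donor site and skipping reads, so they are not separate observations. Without correction for form length, skipping reads made up 20.1%, 27.3% and 19.2% of the event reads of the 108 bp form in set 1. In set 2 they made up 10.7%, 7.96% and 5.95%. The 95% Clopper-Pearson interval of the lowest in set 1 was 13.6% to 25.9%, and that of the highest in set 2 was 7.11% to 15.3%. These intervals overlap, which does not show that the shares are equal, and the difference between these 2 libraries was not tested. By FDR the events ranked 221 and 243 of 276.

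**Figure D5:**
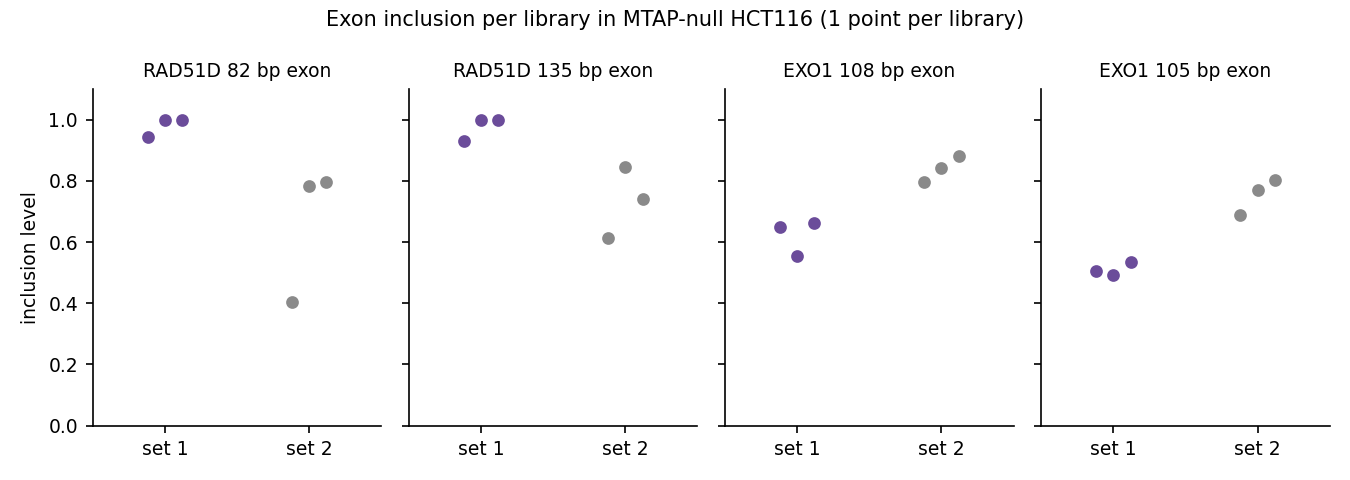
Inclusion level, from 0 to 1, of the 4 skipped-exon events in MTAP-null cells, with 1 point per library, set 1 on the left of each panel and set 2 on the right. Set 1 is higher for both RAD51D exons, at 0.929 or above, and lower for both EXO1 forms, at 0.662 or below, and the sets do not overlap in any panel.

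The 7 genes are part of a list of 86 genes of crosslink repair and recombination, of which 12 had any listed row. By role, the listed genes were 3 of 18 in the Fanconi core and ubiquitin step, 1 of 13 in crosslink incision and processing, 1 of 7 in translesion synthesis, 2 of 11 in the BRCA1 complexes, 1 of 8 in end resection, 3 of 19 in strand exchange and its mediators, and 1 of 10 in resolution and anti-recombination. The share of all tested genes with a listed row was not computed here, so these counts have no background and nothing is read from them. The 5 other listed genes were FAAP20, USP1, ABRAXAS1, MCM8 and FBH1, with 8 features in MTAP-null cells. In FAAP20 and FBH1 some features are pieces of the same intron, so the 8 are not separate introns. Of these 8, 7 rose and 0 fell by edgeR, again against 77.6% and 4.65% of all listed introns, and usage was higher for all 8 in the authors' deposited table. Under TMM scaling 1 of the 8 rose, against 16.2% of all listed introns, and under DESeq2 size factors on the listed introns 1 of the 8, against 14.8%.

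FBH1, a helicase that restrains recombination, had the largest change of them. One of its 2 features rose with a log2 change of 1.66 (standard error 0.33, edgeR adjusted p = 0.000717), with means of 46.5 ± 17.7 with AGI24512 and 14.4 ± 2.93 with DMSO (SD, n = 3 each). It was the one called with TMM scaling, at 0.80. The other, in the same intron, rose by 0.90. USP1, which removes ubiquitin from FANCD2, rose by 1.38 (edgeR adjusted p = 0.00962), a call lost without AGI24512 replicate 2. ABRAXAS1, the scaffold of a BRCA1 complex, rose by 1.05 and MCM8, a helicase of recombination, by 0.92 on the log2 scale. With TMM scaling the second FBH1 feature, USP1, ABRAXAS1 and MCM8 had log2 changes of 0.050, 0.53, 0.22 and 0.067, none called. FAAP20, a subunit of the Fanconi core complex, had 3 features. Those in its intron 3 rose by 0.79 and 0.66, while its intron 2, with 0.55, did not pass (edgeR adjusted p = 0.0583), and all 3 turned to between -0.041 and -0.29 with TMM scaling.

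In MTAP-WT cells, where the authors' deposited table lists 258 introns, 0 belonged to the 86 genes. Features that did not pass the authors' test, with a highest listed adjusted p of 0.0499 in MTAP-null and 0.0494 in MTAP-WT, were not analysed here, so a difference between the genotypes was not tested for any of the 7 genes. The only MTAP-WT event of the 86 genes was an alternative donor site of FAAP20. Its inclusion level in the authors' deposited table was 0.204, 0.363 and 0.129 in set 1, against 1, 0.634 and 1 in set 2, a difference of -0.646 with an FDR of 7.43e-05.

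Summed read counts over the listed introns were 113064 to 214530 per MTAP-null library, and the recovered size factors were 0.859 to 1.14. The targeted gene was not checked, since no gene levels were among the tables used. Of the markers of colon epithelium, 1 of 7, KRT8, had a listed intron, and of those of other cell types 0 of 4 had one, so the tables do not test the identity of the line.

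Across the 6 MTAP-null libraries, the introns whose profile was most like the mean profile of the 8 repair gene introns were in PAPOLA, a poly(A) polymerase, COA1, a mitochondrial assembly factor, and COL13A1, a transmembrane collagen. Their Pearson correlations were 0.997, 0.995 and 0.995, chosen as the highest of 1114 introns. The 6 libraries fall into 2 treatments, so a high value is common to introns that separate them.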

How the data were processed

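Only the authors' tables of splicing comparisons were used, 6 per genotype. Members and gene lists were chosen with earlier results of these data known. The deposited read counts per intron and library are raw, per the file headers. The deposited base mean is a signal, a mean of size-factor-normalised reads, and the 6 size factors were recovered from it by least squares. The authors' usage score is the fitted usage of each treatment, per the file headers. It was taken here to be on DEXSeq's variance-stabilised scale, which the headers do not state. The deposited log2 fold is DMSO over AGI24512, and its sign was turned here. The deposited p-values and FDR are those of DEXSeq and rMATS, per the file headers, and the rMATS inclusion difference is a score, set 1 minus set 2. In some deposited rMATS cells the separators between libraries were lost. For EXO1 they were placed so that the counts give back the deposited inclusion levels. The sources used here name no aligner, build, tool version or strand setting. Coordinates were matched to GENCODE 29 on GRCh38, where 1068 of 1549 introns equal an annotated one. Older symbols were matched through RefSeq GRCh38.p14.

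Counts were fitted with edgeR 4.0.16 (R 4.3.3) over the 1549 MTAP-null introns, treatment only, with no filter. DESeq2 1.42.0, other scalings, a minimum mean of 20, a replicate block and leaving out each library were the alternatives. On simulated counts over 1549 introns in MTAP-null, the edgeR step recovered 71% of changes of 1 and 98% of changes of 2 on the log2 scale, with 6 false calls among 1349. Only 100 introns were given a change of each size there, whereas 1202 of the 1549 listed introns rose in the data. Error from the scaling between libraries was not tested there. The MTAP-WT fit and the drug-by-genotype term were not run, because no member has an MTAP-WT row. The genes named are all 7 members, every listed gene of the 86, and the 3 introns most alike, by Pearson correlation of log2(normalised count + 1).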

Additional observations from a re-analysis of the deposited data

How the results depend on the processing

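With TMM scaling, 251 of the 1549 introns rose and 253 fell, and with DESeq2 size factors on the listed introns 229 rose and 265 fell, against 1202 and 72 with the recovered size factors. Of the 8 repair gene introns, 0 rose and 0 fell by edgeR under either, with 640 and 632 of all introns at an unadjusted p under 0.05. Of the 8 features of other pathway genes 1 rose under either, against 7. These scalings centre the listed introns by construction. XRCC3 turned to -0.28 with TMM and -0.32 with DESeq2 size factors. FAAP20 turned to -0.041 and -0.19 in intron 3 and -0.29 in intron 2 with TMM, and to -0.071, -0.23 and -0.33 with DESeq2 size factors. With equal library sizes 8 of the 8 rose, against 1112 of all 1549 introns, and with DESeq2 7 of the 8, against 1063 of 1549. With a mean count of at least 20, which leaves 6 of the 8, all 6 rose, against 870 of the 1177 introns left. Leaving out 1 library, 1005 to 1281 introns rose, 62 to 71 fell, and 6 to 8 repair gene introns rose. FAAP20 intron 2 passed without AGI24512 replicate 1 or DMSO replicate 1. Deviations from the group mean correlated at 0.069, 0.038 and 0.008 between same-numbered libraries, and at -0.073 to 0.052 between differently numbered ones. Such weak values cannot decide whether same-numbered libraries were prepared together, which the labels do not say. With the replicate block 1215 rose and 72 fell, and 8 of the 8 repair gene introns rose. The lowest base means of the named introns in the authors' deposited table were 10.99 in USP1, 11.7 in HELQ and 12.5 in BARD1. The MTAP-WT and drug-by-genotype alternatives were not run.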
